A study of Mus musculus with 6 samples.

Results

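The V1-like En1 interneurons were 73 of 16225 kept cells in 6 single-cell RNA sequencing libraries of mouse embryoid bodies. Among barcodes with at least 1000 detected genes and at most 10% mitochondrial unique molecular identifiers (UMIs, each standing for 1 captured transcript), a cell was a member if it held at least 1 UMI of En1, at least 1 of the neuronal tubulin Tubb3, at least 1 of Pax2, Lhx1 or Lhx5, and none of Isl1, Mnx1 and Neurog2. Pax2, Lhx1 and Lhx5 encode transcription factors of young ventral interneurons, Isl1 and Mnx1 encode motor neuron factors, and Neurog2 encodes a proneural factor of cells that are leaving the cycle. The rule thus used these 8 genes, and their values are given as a description only. The members numbered 37 of 4499 kept cells in library WT 1, 5 of 1612 in WT 2, 13 of 2283 in DeltaSP 1, 5 of 3602 in DeltaSP 2, 5 of 2129 in KO 1 and 8 of 2100 in KO 2.

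V1 interneurons arise from the p1 progenitor domain of the ventral spinal cord and switch on the homeodomain factor En1 once they leave the cell cycle. They are inhibitory, release glycine or GABA, project on the same side of the cord, and include the Renshaw cells and reciprocal inhibitory interneurons that act on motor neurons. The factors Foxd3, Otp, Mafa, Pax2 and the Onecut family are known in the V1 lineage or in subsets of it.

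The embryoid bodies came from mouse embryonic stem cells with the HB9::GFP motor neuron reporter, driven to differentiate towards motor neurons and taken at day 6. All 6 libraries share that reporter line and protocol. WT was wild type, DeltaSP carried the genotype lncMN2_SP-/- and KO the genotype lncMN2-/-, both made with CRISPR/Cas9 at the locus of a long noncoding RNA. Each genotype had 2 clones and each library was 1 clone, so clone, library and genotype cannot be told apart within a genotype, and p values measure the spread between clones and libraries.

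Library totals ran from 24191242 to 49061693 UMIs. WT 1 stood apart in depth: its members held a median of 4061 UMIs, against medians of 11420 to 17032 in the other 5 libraries, and it gave 50.7% of all members. The members held 657172 UMIs in all, from 59015 in DeltaSP 2 to 163193 in DeltaSP 1, so that 1 UMI was worth 6.13 to 16.9 CPM (the UMIs of a gene per 1000000 UMIs of the members of a library, the unit of every level here). Across the libraries 38 kept barcodes occurred in more than 1 library, and 0 of them belonged to a member. In these sums, fewer cells and less RNA per cell cannot be told apart.

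The En1 signal that chose the members was low in many of them. En1 had 1 UMI in 25 members, at least 2 in 48 and at least 4 times in 22, with a median of 2 UMIs and a maximum of 15. Its level was 498 CPM in WT 1, 411 in WT 2, 221 in DeltaSP 1, 457 in DeltaSP 2, 185 in KO 1 and 447 in KO 2. Lhx1 was found in 69 members, Pax2 in 41 and Lhx5 in 38; all 3 were found together in 23, Lhx1 with Pax2 only in 15, Lhx1 with Lhx5 only in 13 and Lhx1 alone in 18. Of those 18, 17 were cells of the shallow library WT 1.

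Of 189 kept cells with En1, 65 met every other condition but held Isl1 (44 cells), Mnx1 (13) or Neurog2 (24). They lay just outside the rule and did not have less En1: 51 of them held at least 2 En1 UMIs, and the highest held 19. By library they numbered 10 in WT 1, 2 in WT 2, 13 in DeltaSP 1, 11 in DeltaSP 2, 14 in KO 1 and 15 in KO 2. A further 9 cells with En1 lacked Pax2, Lhx1 and Lhx5, and 3 lacked Tubb3. As a measure of free En1 RNA, En1 was counted in 11 of 2299 motor neuron-like cells (0.478%; at least 1 UMI each of Isl1, Mnx1 and Tubb3) and in 12 of 2962 progenitor cells with Sox2 and without Tubb3 (0.405%).

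Markers of other spinal cell types that the V1 list does not share were rare in the members. Evx1, the defining V0 factor, was found in 5 members (4 of WT 1, 1 of WT 2), any V2a marker in 3, any V2b marker in 2 and any V3 marker in 2, and no member held 2 markers of any of these 4 types. The V2b factor Tal1 and the V3 factor Sim1 were at 0. A motor neuron marker was found in 14 members and 2 such markers in 1, while the acetylcholine-synthesising enzyme Chat, the factor Isl2 and the choline transporter Slc5a7 were at 0. Of the dorsal interneuron list 8 of 13 genes were at 0, among them Ptf1a and Lbx1; any gene of it was found in 51 members, through Foxd3 in 49, Tlx3 in 4 and Dmrt3, Lhx2 and Lhx9 in 1 each, and Foxd3 stands on both the dorsal and the V1 lineage list. En1 is also a factor of the midbrain and its boundary with the hindbrain. Any gene of the list for that region was found in 52 members and at least 2 in 28, with a summed level of 172 to 410 CPM in the members against 34.8 to 85.7 in neurons that met the same rule without En1. The list shares Pax5, Pax8 and Gbx2 with spinal interneurons or with the genes described below, and these were found in 24, 15 and 41 members, Th in 4 and En2 in 3. Otx2, Fgf8, Wnt1, Lmx1a and Pitx3 were at 0. The progenitor factor Sox2 was found in 8 members, and pluripotency and endoderm markers in none. Progenitor genes of broader expression were found more often, Vim in 48 members, Fabp7 in 17 and Nes in 16, each in a smaller share than in the En1-negative neurons. At least 2 progenitor genes were found in 40 members, at least 2 S phase genes in 31 and at least 2 G2 and M phase genes in 34. At least 2 genes of committing neuronal precursors were found in 48. The summed G2 and M phase level was 242 to 1745 CPM in the members, 620 to 2273 in En1-negative neurons and 283 to 1112 in motor neuron-like cells.

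**Figure D1:**
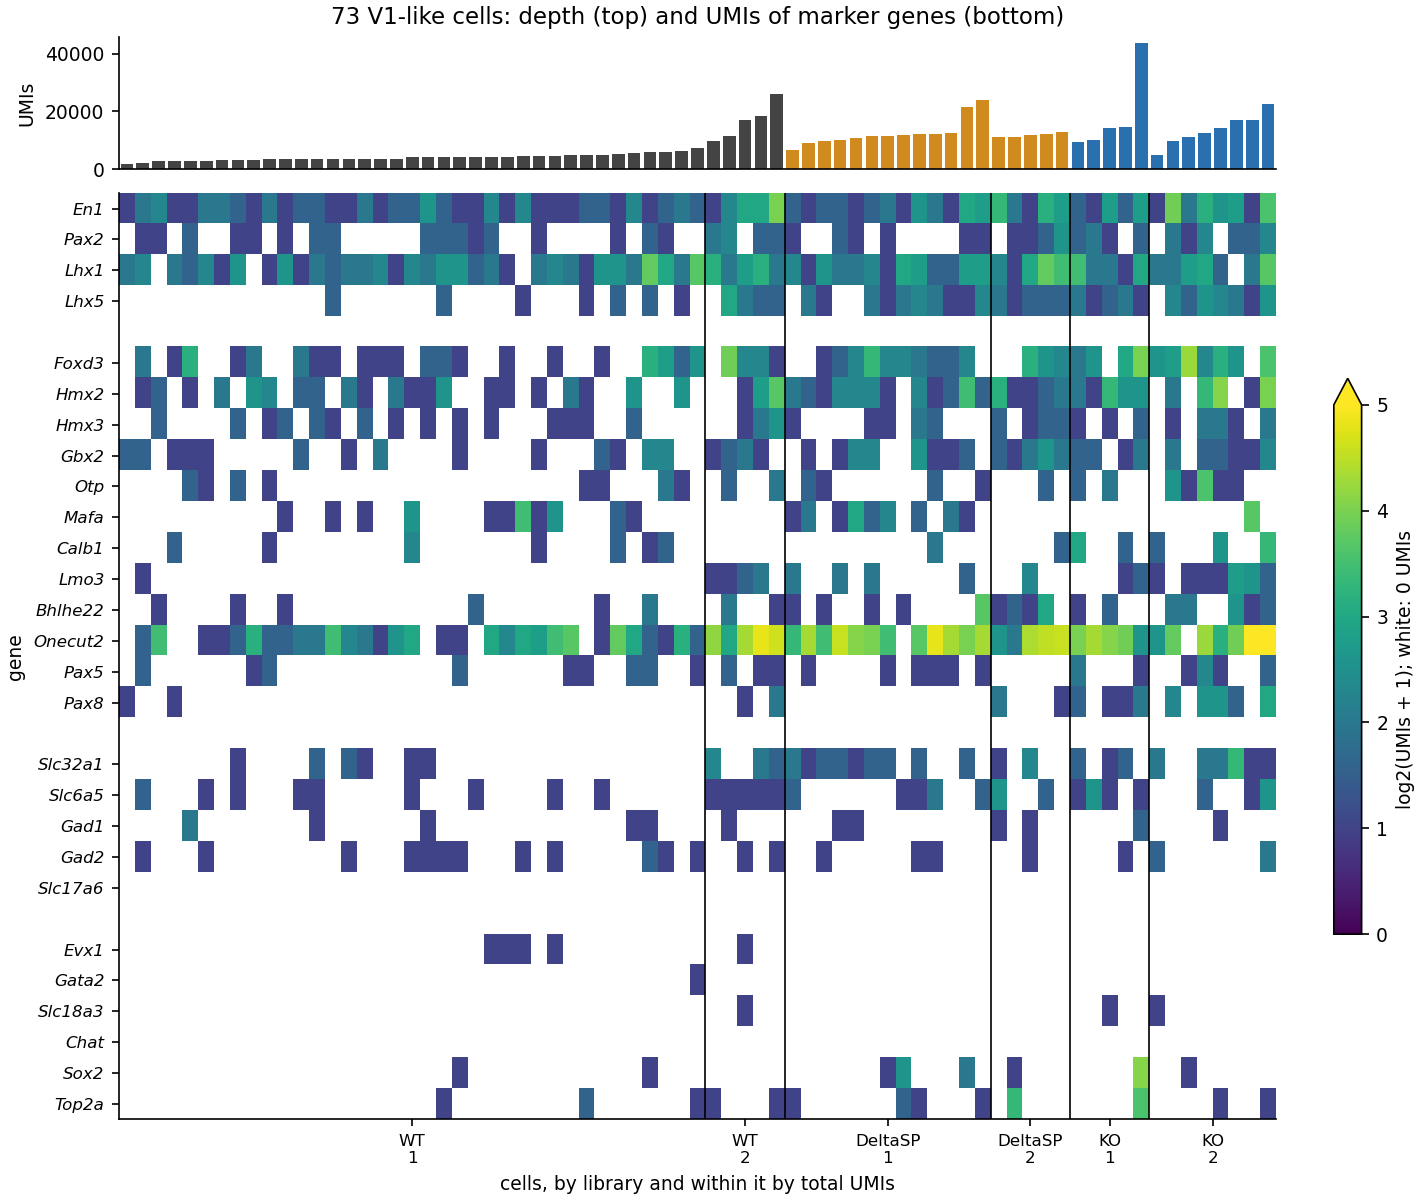
UMIs of marker genes in each of the 73 V1-like cells (columns, grouped by library and ordered by total UMIs within it); the upper bars give each cell's total UMIs, and the colour gives log2(UMIs + 1), with white for 0. The first block holds the genes of the rule; Foxd3, Hmx2 and Onecut2 fill much of the second block, Slc17a6 stays empty, and 1 KO 1 cell reaches 43745 UMIs.

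The share of V1-like cells did not separate the genotypes. It was 0.822% of kept cells in WT 1 (Wilson 95% interval 0.597% to 1.13%), 0.310% in WT 2 (0.133% to 0.724%), 0.569% in DeltaSP 1 (0.333% to 0.972%), 0.139% in DeltaSP 2 (0.0593% to 0.325%), 0.235% in KO 1 (0.100% to 0.549%) and 0.381% in KO 2 (0.193% to 0.750%). The WT libraries held both a high and a low share; KO 2 lay between them and KO 1 below WT 2, and the DeltaSP libraries spanned both KO libraries. The WT clones averaged 0.566% ± 0.362, the DeltaSP clones 0.354% ± 0.304 and the KO clones 0.308% ± 0.103 (SD, n = 2 each). KO minus WT was -0.258 percentage points (two-sided exact permutation p = 0.667), DeltaSP minus WT -0.212 (exact p = 0.667) and KO minus DeltaSP -0.0462 (exact p = 1); with 2 against 2 libraries the smallest p is 0.333. The intervals cover counting error only.

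The same shares turned in direction when cells with Isl1, Mnx1 or Neurog2 UMIs were counted too, a setting added after the values were seen. The numbers were then 47 in WT 1, 7 in WT 2, 26 in DeltaSP 1, 16 in DeltaSP 2, 19 in KO 1 and 23 in KO 2, or 1.04%, 0.434%, 1.14%, 0.444%, 0.892% and 1.10% of kept cells. The rule's exclusion removed 10 of 47 such cells in WT 1, 2 of 7 in WT 2, 13 of 26 in DeltaSP 1 and 11 of 16 in DeltaSP 2. In KO 1 it removed 14 of 19 and in KO 2 15 of 23. Members were shallowest in WT 1 and deepest in WT 2, with medians of 4061 and 17032 UMIs. Depth affects whether a gene is found at 0, and its part in these numbers was not tested. With cells thinned to 3000 UMIs and shallower cells left out, the shares under the rule were 0.646%, 0.331%, 0.459%, 0.176%, 0.241% and 0.450% in the same library order.

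**Figure D2:**
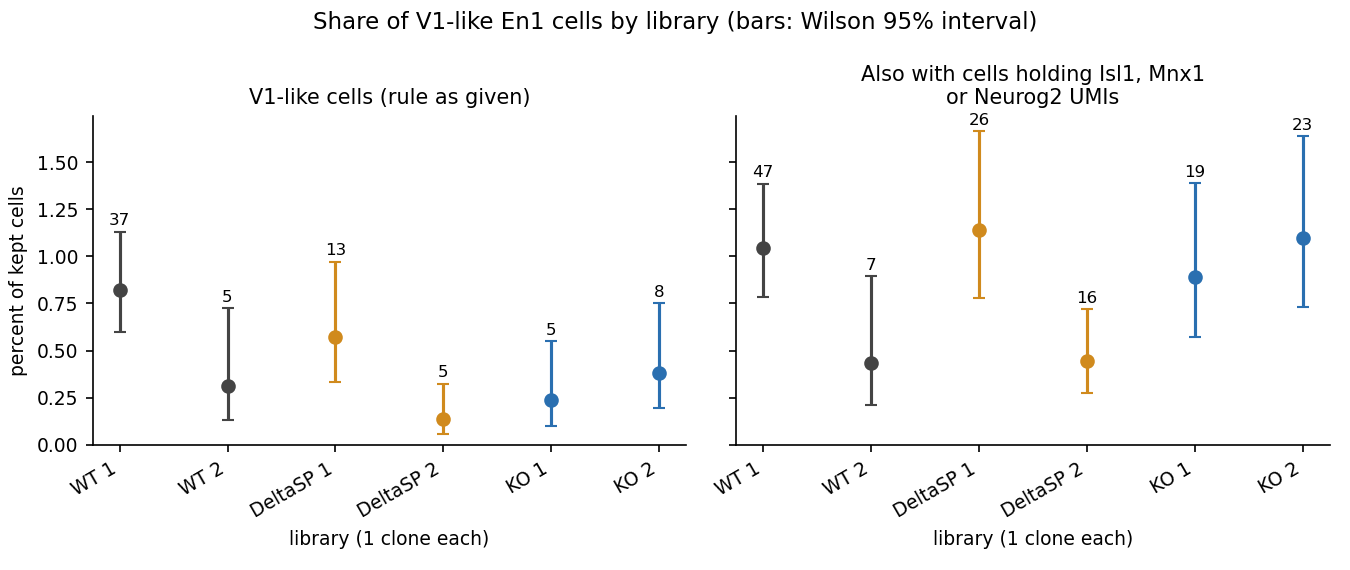
Percent of kept cells that were V1-like in each library (points, with Wilson 95% intervals and the number of cells above), under the rule (left) and with cells holding Isl1, Mnx1 or Neurog2 UMIs counted too (right). On the left WT 1 is highest at 0.822%; on the right DeltaSP 1, KO 2 and WT 1 all lie above 1%.

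The other cell sets used for comparison came from the same libraries. En1-negative neurons met the same rule but held 0 En1 UMIs (336 cells). Motor neuron-like cells held Isl1 and Mnx1 and 0 En1 UMIs (2288 cells). V2b-like cells held Gata3 and Tal1, factors of the inhibitory V2b interneurons, with 0 En1 UMIs (75 cells). A V2b-like cell with Pax2, Lhx1 or Lhx5 also belonged to the En1-negative neurons. Results against these 2 sets thus partly share cells, and the same gene in both is not a separate finding. UMIs were summed per library and set and tested with edgeR's quasi-likelihood test with the library as a block, over all tested genes and without the genes that chose either set. Genes pass the filter on low counts through the set where they are high, so the counts below describe and do not support one another.

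Genes of the V1 lineage list were found in the members in 18 of 20 cases, with Nr5a2 and Chrna2 at 0. That count did not set the members apart. It was 19 in the En1-negative neurons, 19 in motor neuron-like cells and 13 in V2b-like cells, sets of unlike size. The summed level of the list was 1563 to 3019 CPM in the members and 861 to 1552 in En1-negative neurons. It was 443 to 723 CPM in motor neuron-like cells and 878 to 2027 in V2b-like cells. Foxd3, a forkhead factor that V1 interneurons carry and that neural crest uses too, was found in 49 of 73 members (67.1%), against 8.93% of En1-negative neurons, 0.306% of motor neuron-like cells and 0 of 75 V2b-like cells. Its level in the members was 352 CPM in WT 1, 278 in WT 2, 214 in DeltaSP 1, 288 in DeltaSP 2, 326 in KO 1 and 520 in KO 2. In the En1-negative neurons it ran from 0 to 56.3 CPM, so that the 2 sets did not overlap in any library. Cells were also thinned to 3000 UMIs, with shallower cells left out and the rule applied again to the thinned counts. Such sets can hold cells that the full counts exclude, and DeltaSP 2 then gave 6 cells and KO 2 gave 9. Foxd3 was found in 51.7% of the V1-like cells and 9.80% of the En1-negative neurons so chosen.

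Hmx2 and Hmx3, neighbouring homeobox genes on mouse chromosome 7 (mm10, 131548773 to 131558014 and 131542867 to 131544925, both on the plus strand), were found in 51 and 35 members. The level of Hmx2 was 339 CPM in WT 1, 230 in WT 2, 233 in DeltaSP 1, 254 in DeltaSP 2, 250 in KO 1 and 401 in KO 2, and in En1-negative neurons it was at most 34.8 CPM. Every library's members thus lay above every library's En1-negative neurons. At least 1 of Foxd3, Hmx2 and Hmx3 was found in 67 of 73 members, and the other 6 had a median of 1 En1 UMI. The long noncoding RNA Gm12688, which lies upstream of Foxd3 on the opposite strand (mm10 chromosome 4, 99653607 to 99654983, with Foxd3 at 99656299 to 99658622), was found in 47 members, at 32.6 to 279 CPM.

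Finding Foxd3 went with depth over all members but not within WT 1. Members with Foxd3 held a median of 9877 UMIs and the 24 without it 4682.5. Within WT 1, 21 of 37 members held Foxd3, with a median of 3663 UMIs against 4180.5 without it. In the other libraries Foxd3 was found in 4 of 5 (WT 2), 10 of 13 (DeltaSP 1), 3 of 5 (DeltaSP 2), 4 of 5 (KO 1) and 7 of 8 members (KO 2).

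Subset factors were found in smaller and uneven numbers of members. Onecut2, a cut-homeobox factor of early-born spinal neurons, was found in 65 members at 749 to 1237 CPM, and Onecut1 in 20. Mafa, a factor of the Renshaw cell programme, was found in 21 members, and Calb1, the calbindin gene of Renshaw cells, in 14. Mafa was uneven across libraries: 11 of its members were in WT 1, 9 in DeltaSP 1, 1 in KO 2 and none in the other 3, with levels of 193, 147 and 109 CPM where it was found. Otp, a homeobox factor of V1 subsets, was found in 22 members, 16 of them with Foxd3. Bhlhe22 was found in 24, Lmo3 in 19, Prdm8 in 18, Foxp4 in 12, Sp8 in 6, Prdm12 and Prox1 in 5 each, Foxp2 in 4 and Tfap2b in 2. Prdm8, Foxp4 and Sp8 were found in a larger share of the progenitor cells (46.2%, 46.7% and 28.6%) than of the members.

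The relatives of Pax2 were also found. Pax5 and Pax8, which share the paired domain and work beside Pax2 in inhibitory interneurons, were found in 24 and 15 members, and 15 members held one of these without Pax2. Pax8 was found in 0.893% of En1-negative neurons and 0 of 75 V2b-like cells. Its level in the members was 13.3 CPM in WT 1, 48.4 in WT 2, 0 in DeltaSP 1, 67.8 in DeltaSP 2, 76.0 in KO 1 and 210 in KO 2, so DeltaSP 1 lacked it although it had 13 members.

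The members carried inhibitory and no glutamatergic transmitter genes. The vesicular inhibitory amino acid transporter Slc32a1 was found in 29 members, the glycine transporter Slc6a5 in 28, and the GABA-synthesising enzymes Gad2 and Gad1 in 21 and 12. At least 1 of Slc32a1, Slc6a5, Gad1 and Gad2 was found in 51 members: 20 of 37 in WT 1, 5 of 5 in WT 2, 12 of 13 in DeltaSP 1, 3 of 5 in DeltaSP 2, 5 of 5 in KO 1 and 6 of 8 in KO 2. Slc6a5 was found with Gad1 or Gad2 in 13 members, without them in 15, and Gad1 or Gad2 without Slc6a5 in 17. The vesicular glutamate transporters Slc17a6, Slc17a7 and Slc17a8 were found in 0 of 73 members, which allows a share of up to 4.11% with a UMI. Their summed level was low in the other sets too. It was at most 8.45 CPM in En1-negative neurons, 1.01 in motor neuron-like cells and 13.1 in V2b-like cells, so their absence did not set the members apart. Foxd3 and an inhibitory gene were found together in 38 members, and 11 held neither, of which 10 were in WT 1.

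Against En1-negative neurons, the nearest set, the members differed in few genes. Of 4125 genes tested 2.23% passed the threshold of an adjusted p of 0.05, 1.28% higher and 0.945% lower in the members. Hmx2 was higher by 4.58 ± 0.33 on the log2 scale (SE, 6 libraries; edgeR, adjusted p = 1.47e-10), Foxd3 by 3.94 ± 0.32 (adjusted p = 1.57e-09), Pdzrn4, a ubiquitin ligase-like PDZ protein, by 3.88 ± 0.34 (adjusted p = 5.02e-09), and Gbx2, a homeobox factor, by 3.62 ± 0.33 (adjusted p = 7.52e-09). All 4 were higher in 6 of 6 libraries. Pdzrn4 stood at 272 to 456 CPM in the members and 0 to 52.2 in En1-negative neurons, and Gbx2 at 84.7 to 237 and 3.45 to 20.1.

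A second group of genes was higher by less. Adarb2, an RNA-editing family member without known editing activity, rose by 2.89 ± 0.22, the endocytic adaptor gene Sh3bp4 by 2.20 ± 0.25, the Slit receptor gene Robo2 by 2.18 ± 0.32 and Brinp1 by 1.91 ± 0.41. Mab21l2 (1.86 ± 0.21), the retinoic acid-binding protein gene Crabp1 (1.67 ± 0.11), the neuropeptide precursor gene Pnoc (1.54 ± 0.18) and the bHLH factor gene Bhlhe22 (1.52 ± 0.30) followed, each higher in 6 of 6 libraries and each past the edgeR threshold. Of the 6 tested genes of the V1 lineage list 2 were higher, Foxd3 and Bhlhe22, with a list median of 0.46 against 0.00 over all tested genes. Pnoc did not pass with cells thinned to 3000 UMIs (adjusted p = 0.145).

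The genes lower in the members numbered 39 against 53 higher, a balance that turned with no filter (81 higher, 174 lower), without WT 1 (38 and 42), with at least 2 En1 UMIs (29 and 32) and with thinned cells (14 and 18). The axon guidance gene Islr2 had 1 UMI in the members against 336 in the En1-negative neurons, a ratio of 79.2 (95% counting interval 14.1 to 3138). The Iroquois patterning factors Irx3 and Irx5 were lower, with a log2 difference of -3.42 ± 0.46 for Irx3 and -2.86 ± 0.42 for Irx5. Irx3 was at 0 in 4 libraries of the members, with 19.9 CPM in WT 1 and 18.4 in DeltaSP 1, and ran from 52.2 to 174 CPM in the En1-negative neurons. The neuronal factor Ebf1 (-2.56 ± 0.21), the growth factor gene Ptn (-2.12 ± 0.27), the Wnt modulator Sfrp2 (-2.02 ± 0.36) and the vesicle protein gene Syt4 (-1.79 ± 0.29) were lower in 6 of 6 libraries. Ptn did not pass with thinned cells (adjusted p = 0.156). The V2b factor Gata2 had 1 UMI in the members and 266 in the En1-negative neurons, and Rpp25 had 0 against 167, at least 13.1-fold lower over the set.

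Of the transmitter, Hox and neuronal lists few genes passed against the En1-negative neurons. The summed level of the inhibitory list was higher in the members of WT 1 and WT 2 (259 and 242 CPM against 121 and 126). It was lower in those of DeltaSP 1, DeltaSP 2, KO 1 and KO 2 (245, 271, 185 and 337 CPM against 401, 329, 516 and 680). The En1-negative neurons also varied in V2b genes (Gata2, Gata3, Tal1 and Tal2). Summed, these stood there at 85.7 and 221 CPM in WT, 454 and 340 in DeltaSP, and 569 and 660 in KO. Neither their part in this turn nor a difference between genotypes was tested. Slc6a5 (0.33 ± 0.32), Slc32a1 (-0.50 ± 0.26) and Gad2 (-1.19 ± 0.38) did not pass, nor did Onecut2 (0.44 ± 0.13); 0 of 3 tested inhibitory genes and 0 of 13 Hox genes passed in edgeR. Gad2 passed without WT 1 and with no filter, and Onecut2 without KO 1 and without the deepest cells. Of 17 pan-neuronal genes 2 were lower, the RNA-binding protein gene Elavl2 (-1.27 ± 0.20) and the synaptic vesicle gene Syt1 (-1.29 ± 0.32), and Syt1 was lost without DeltaSP 1, DeltaSP 2, KO 1 or KO 2 and in DESeq2. Of 10 axon guidance genes 2 were higher, Robo2 and the ephrin receptor gene Epha5 (0.73 ± 0.16), and 2 lower, the Robo ligand gene Slit2 (-1.85 ± 0.32) and Ncam1 (-0.81 ± 0.14). Without WT 1, Slit2 stood at -1.04 with an adjusted p of 0.0514, and Epha5 did not pass without WT 1 or DeltaSP 1, in DESeq2, with at least 2 En1 UMIs or with thinned cells. The cycle genes Rrm2 (-1.31 ± 0.29) and Top2a (-1.12 ± 0.28) were lower as well; Top2a was lost without WT 2, DeltaSP 1, DeltaSP 2 or KO 2, in DESeq2 and with at least 2 En1 UMIs, and Rrm2 without DeltaSP 2.

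Against V2b-like cells, which are also inhibitory, 4.82% of 2157 tested genes passed, 2.46% higher and 2.36% lower. Foxd3, Hmx2, Gm12688, Otp and Pax8 had 0 UMIs in the V2b-like cells and were at least 80.4-fold, 71.0-fold, 41.5-fold, 18.3-fold and 15.0-fold higher in the members (against 3 counts over the set). Pdzrn4 was higher by 5.47 ± 0.37, the bHLH factor gene Nhlh2 by 3.60 ± 0.34, Crabp1 by 2.97 ± 0.15, Olfm1 by 2.42 ± 0.21, Adarb2 by 2.41 ± 0.27 and the nicotinic receptor gene Chrna3 by 1.86 ± 0.26. The neurofilament genes Nefm (1.37 ± 0.18) and Nefl (1.10 ± 0.15) were higher in 6 of 6 libraries, and Pnoc was higher by 0.82 ± 0.18, a call lost in DESeq2 and with at least 2 En1 UMIs (highest adjusted p = 0.225).

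Lower than in V2b-like cells were GABA genes and patterning factors. Gad2 differed by -2.79 ± 0.32 and Slc32a1 by -1.38 ± 0.24, both lower in 6 of 6 libraries, while Slc6a5 (-0.54 ± 0.29; edgeR, adjusted p = 0.388) did not pass. Gad2 stood at 10.9 to 86.3 CPM in the members and 148 to 421 in the V2b-like cells, without overlap, and was found in 28.8% and 68.0% of cells. Irx3 (-4.52 ± 0.42), Irx5 (-4.13 ± 0.40), Ptn (-2.99 ± 0.23), St18 (-2.66 ± 0.34), Ebf1 (-2.64 ± 0.26), the Slit receptor gene Robo1 (-1.17 ± 0.29) and Hoxb4 (-1.01 ± 0.16) were lower; Robo1 was lost in DESeq2 and Hoxb4 with thinned cells. Rpp25 was at least 40.7-fold lower, and Gata2, with 1 UMI, was lower by a ratio of 207 (36.8 to 8205).

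Against motor neuron-like cells, the product the protocol aims at, 9.38% of 9487 tested genes passed, 3.81% higher and 5.58% lower in the members. All 5 inhibitory transmitter genes were higher, with a median log2 difference of 6.07 against -0.08 over all tested genes. Slc6a5 was higher by 7.18 ± 0.51, Slc32a1 by 6.07 ± 0.42 and Gad2 by 4.14 ± 0.55, each in 6 of 6 libraries. Slc6a5 stood at 55.1 to 119 CPM in the members and at most 0.889 in motor neuron-like cells. Gad1 had 15 UMIs in the members and 3 in the motor neuron-like cells, a ratio of 276 (78.2 to 1489).

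Of 12 tested V1 lineage genes 7 were higher than in motor neuron-like cells and none was lower. They were Foxd3 (9.93 ± 0.34), Otp (7.03 ± 0.54), Lmo3 (4.30 ± 0.43), Bhlhe22 (4.28 ± 0.37), Mafa (2.45 ± 0.34), Onecut2 (2.13 ± 0.12) and Onecut1 (1.38 ± 0.36). Mafa was higher in 3 of 6 libraries and at 0 in the other 3, and was lost in DESeq2 (adjusted p = 0.727); Onecut1 was lost without KO 2 and with at least 2 En1 UMIs. Hmx2 (9.74 ± 0.36), Gm12688 (8.36 ± 0.42), Hmx3 (8.34 ± 0.53), Mab21l2 (7.12 ± 0.21), Adarb2 (7.06 ± 0.24), Pnoc (6.91 ± 0.23), Gbx2 (5.20 ± 0.33), Pdzrn4 (5.12 ± 0.20) and the synaptic adhesion gene Nrxn3 (4.98 ± 0.24) were higher in 6 of 6 libraries.

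Motor neuron genes not used by the rule were low in the members, 6 of 7 tested passing as lower. Chat and Isl2 had 0 UMIs and were at least 18.7-fold and 23.3-fold lower over the set. Slc18a3, the vesicular acetylcholine transporter, had 3 UMIs and was lower by a ratio of 122 (41.8 to 593), Lhx4 by 55.0 (15.2 to 454) and Lhx3 by 36.9 (10.2 to 305). The intermediate filament gene Prph (-4.78 ± 0.28), the endopeptidase gene Ecel1 with 1 UMI (a ratio of 97.3, 17.5 to 3845), and the guidance genes Cntn2 (-5.25 ± 0.26), Slit2 (-4.68 ± 0.19) and Slit3 (-4.24 ± 0.29) were lower in 6 of 6 libraries. Slit2 stood at 21.7 to 73.5 CPM in the members and 989 to 1401 in motor neuron-like cells. Of 22 axon guidance genes 10 were lower and 4 higher, and of 17 pan-neuronal genes 9 were lower and 2 higher.

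Hox genes, which specify rostrocaudal identity, were mostly higher in the members than in motor neuron-like cells. Of 17 tested 10 were higher (Hoxb2 to Hoxb9, Hoxc5 and Hoxc6), with a list median of 1.21. Hoxb6 was higher by 2.75 ± 0.14, with 531 to 1207 CPM in the members and 49.3 to 194 in motor neuron-like cells, and Hoxb8 by 1.96 ± 0.14, with 356 to 638 and 70.3 to 189 CPM. Hoxb9 was higher by 4.95 ± 0.45 in 5 of 6 libraries and was at 0 in KO 1, and Hoxc6 by 4.18 ± 0.53.

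**Figure D3:**
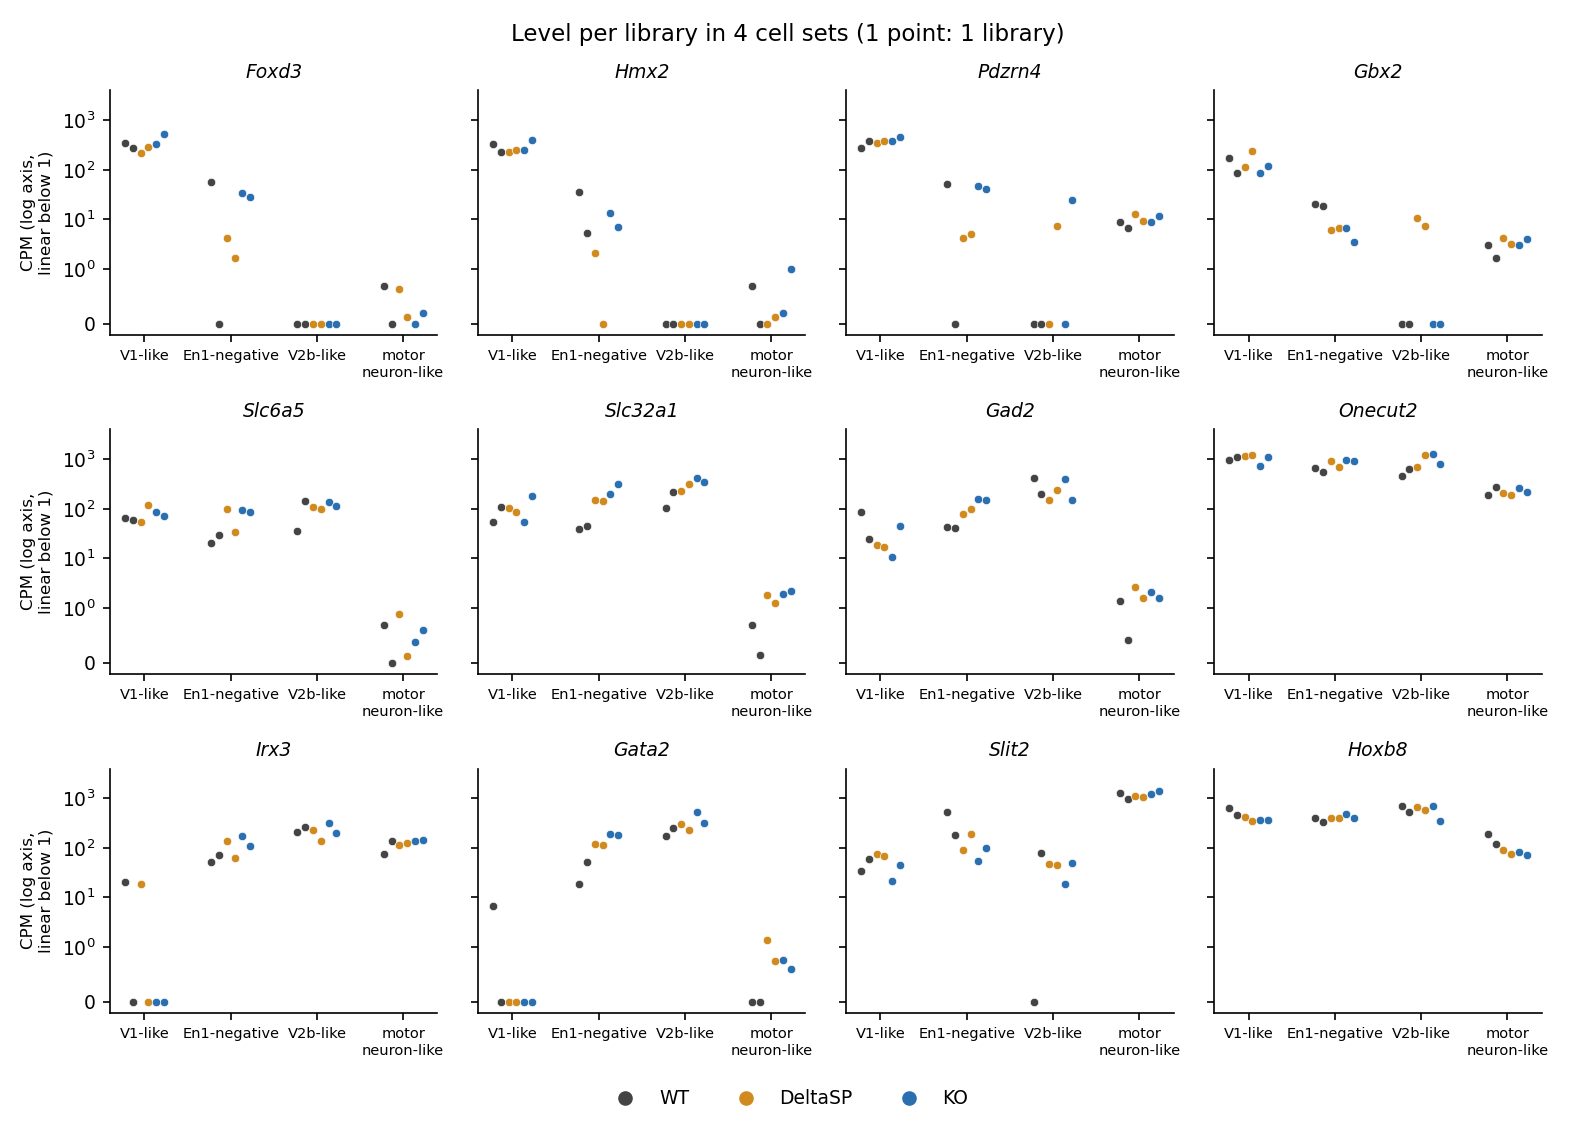
CPM of 12 genes per library (points, coloured by genotype) in V1-like, En1-negative, V2b-like and motor neuron-like cells; the axis is logarithmic and linear below 1. Foxd3, Hmx2, Pdzrn4 and Gbx2 are highest in the V1-like cells of every library, the inhibitory genes are lowest in motor neuron-like cells, and Irx3 and Gata2 are near 0 in the V1-like cells.

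The targeted transcript, taken here as the annotated long noncoding RNA 5330434G04Rik on mm10 chromosome X (105348282 to 105391776, minus strand), was low in the members. It had 12 UMIs in WT 1, 6 in WT 2, 9 in DeltaSP 1, 1 in DeltaSP 2 and 0 in both KO libraries. The KO libraries' 201766 member UMIs allow up to 14.9 CPM, against 79.7 and 72.6 CPM in WT 1 and WT 2 and 55.1 and 16.9 CPM in DeltaSP 1 and DeltaSP 2. Taken singly, KO 1 and KO 2 allow up to 32.6 and 27.4 CPM, so DeltaSP 2, with 1 UMI, could not be told apart from them. The 0 UMIs in both KO libraries matched the KO labels.

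In KO against WT members, 2.7% of 2520 tested genes passed in edgeR, 7 higher (0.278%) and 61 lower (2.42%). The 5 tested V1 lineage genes, the 1 tested inhibitory gene and the 14 tested pan-neuronal genes did not pass, and 1 of 13 Hox genes did, Hoxa5. The mean of Foxd3 was 315 ± 52.1 CPM over the WT and 423 ± 137 over the KO libraries, and that of Onecut2 was 1054 ± 119 and 935 ± 264 (SD, n = 2), with overlapping libraries in both genes. The calls rest on few clones: 3 genes passed without KO 1 (1 higher, 2 lower), 19 without KO 2 (12 higher, 7 lower, so that the balance turned), 57 without WT 1 and 165 without WT 2.

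Cdkn1c, an imprinted gene whose product brakes the cell cycle (mm10 chromosome 7, 143458339 to 143461050), was high in both WT libraries and low in the others. It stood at 943 CPM in WT 1 and 1028 in WT 2, at 116 in DeltaSP 1 and 84.7 in DeltaSP 2, and at 54.3 in KO 1 and 264 in KO 2. The WT libraries did not overlap the other 4. KO was lower than WT by a log2 difference of -2.70 ± 0.46 (edgeR, adjusted p = 0.00879; -4.21 without KO 2, and not passing without KO 1, adjusted p = 0.0588). Motor neuron-like cells had the pattern too, at 337 and 367 CPM in WT, 53.6 and 39.0 in DeltaSP and 36.2 and 50.3 in KO. In V2b-like cells the range was 127 to 301 CPM, with WT 1 at 176 between the others. That set held only 7 cells in WT 1 and 5 in WT 2, where 1 UMI was worth 35.1 and 13.1 CPM.

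Epha5, Scrt1 and Hoxa5 were lower as well. The ephrin receptor gene Epha5 stood at 751 and 496 CPM in WT, 263 and 153 in DeltaSP, and 130 and 237 in KO, a KO-WT difference of -1.89 ± 0.41 (adjusted p = 0.0162). The neuronal repressor Scrt1 stood at 246 and 363 CPM in WT, 73.5 and 84.7 in DeltaSP, and 10.9 and 82.1 in KO, a difference of -2.70 ± 0.54 (adjusted p = 0.013; -4.70 without KO 2). For both genes the WT libraries lay above the other 4. Hoxa5, with 638 and 375 CPM in the WT libraries against 228 and 137 in the KO libraries, differed by -1.64 ± 0.41 (adjusted p = 0.0382). Epha5 was lost without WT 1 or KO 1, Scrt1 without KO 1, and Hoxa5 without WT 1, KO 1 or KO 2, in DESeq2 (adjusted p = 0.113), without the deepest cell (0.0795) and with cells holding Isl1, Mnx1 or Neurog2 counted too (0.0559).

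Many of the other lower genes encode small ribosomal and mitochondrial proteins. The mitochondrial proteolipid gene 2010107E04Rik stood at 379 and 387 CPM in WT, 85.8 and 136 in DeltaSP, and 54.3 and 45.6 in KO (-3.04 ± 0.46, adjusted p = 0.00586). Atp5k (-2.83 ± 0.50), Ndufa3 (-2.36 ± 0.61) and Cox7b (-1.95 ± 0.41), subunits of ATP synthase and the respiratory chain, Rplp1 (-2.54 ± 0.44) and Rps29 (-2.30 ± 0.42), ribosomal proteins, Pin4 (-2.96 ± 0.66) and Serf1 (-2.36 ± 0.46) were lower as well, as was the nuclear RNA Malat1 (-1.54 ± 0.26). Without KO 1 or without KO 2 most of these calls were lost: leaving out either one ended those of Pin4, Serf1, Ndufa3, Rps29, Cox7b and Malat1, leaving out KO 1 ended those of 2010107E04Rik and Rplp1, and leaving out KO 2 that of Atp5k. Pin4 was also lost without WT 1, in DESeq2 and with at least 2 En1 UMIs, Ndufa3 without WT 2 and in DESeq2, and Malat1 with cells holding Isl1, Mnx1 or Neurog2 counted too. The lists of these families were drawn up after the values were seen: 12 of 80 cytosolic ribosomal protein genes passed as lower, with a median of -0.87, and 19 of 80 respiratory chain and ATP synthase genes, with a median of -1.03, where 2.42% of all tested genes passed as lower and their median was 0.05. Against the same WT libraries, 0 genes of either family passed in DeltaSP. The medians there were -0.50 and -0.38, with 70 of 80 and 61 of 80 genes below 0, where KO had 63 and 71. Rps29 was at 2088 and 2080 CPM in WT motor neuron-like cells and at 408 and 371 in KO ones, so WT was higher in those cells too. The genes called lower had a median longest transcript of 869.5 bases against 2755 over the tested genes; its part in the result was not tested. Cox7b lies on chromosome X as well (106015700 to 106022450), in the neighbourhood of the targeted transcript; the other tested neighbours, Atrx (0.42 ± 0.40, adjusted p = 0.709) and Pgk1 (0.69 ± 0.46, adjusted p = 0.543), did not pass.

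The 7 genes higher in KO included metabolic and imprinted genes. The glycolytic enzyme gene Ldha stood at 6.64 and 12.1 CPM in WT, 123 and 67.8 in DeltaSP, and 65.1 and 456 in KO (4.66 ± 0.91, adjusted p = 0.013; 2.69 without KO 2, adjusted p = 0.565). The glucose transporter gene Slc2a1 stood at 13.3 and 0 CPM in WT, 36.8 and 153 in DeltaSP, and 358 and 54.7 in KO (4.28 ± 1.07, adjusted p = 0.037), and the call was lost without KO 1 (2.38, adjusted p = 0.706), in DESeq2 and with at least 2 En1 UMIs, with 7.32 without WT 1. The imprinted gene Mest stood at 53.1 and 290 CPM in WT, 337 and 407 in DeltaSP, and 1487 and 812 in KO (2.79 ± 0.53, adjusted p = 0.0128), and the call was lost without WT 1 (1.86, adjusted p = 0.0507), without KO 1 (2.22, adjusted p = 0.0849) and in DESeq2 (adjusted p = 0.124), with 4.19 without WT 2. In all 3 genes both KO libraries lay above both WT libraries, and for Ldha and Slc2a1 the DeltaSP libraries overlapped KO. In KO 1, 1 cell gave all 6 UMIs of Ldha and 31 of 33 of Slc2a1. Nme2 (2.58 ± 0.68), Crtac1 (2.20 ± 0.53), the mitochondrial protein gene C1qbp (1.98 ± 0.42) and the tubulin gene Tuba1b (1.94 ± 0.40) were the others, and none of these 4 passed without KO 1. Crtac1 was also lost without WT 1 or KO 2, in DESeq2 and with at least 2 En1 UMIs, C1qbp without WT 2, and Nme2 in DESeq2 and with cells holding Isl1, Mnx1 or Neurog2 counted too.

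One KO 1 member held 43745 of the 92119 UMIs of that library's members (47.5%). It gave all 6 KO 1 UMIs of Ldha, so the Ldha value without this cell, given below, rests on KO 2. It gave 31 of 33 UMIs of Slc2a1, 113 of 137 of Mest, 27 of 37 of Nme2, 27 of 42 of C1qbp and 52 of 75 of Tuba1b. It also gave all 16 of Sox2, all 11 of Top2a and 56 of 57 of the radial glia gene Fabp7, which are progenitor and cycle genes. The summed level of the neural progenitor list in the members was highest in KO 1, at 2149 CPM, against 602 in KO 2 and 508 to 1084 in the WT and DeltaSP libraries; its part in the KO differences was not tested. It also held 6 of 17 En1 UMIs, 15 of 30 of Foxd3 and 16 of 178 of Tubb3. Without it, Mest stood at 2.04 (adjusted p = 0.0124), C1qbp at 1.70, Tuba1b at 1.56, Ldha at 4.70 and Crtac1 at 2.50, all past the threshold, Nme2 at 1.77 did not pass (adjusted p = 0.122), and Slc2a1 fell under the filter on low counts. Cdkn1c stood at -2.39, Epha5 at -1.57 and Scrt1 at -2.38 without it, all past the threshold, and 147 genes passed in all.

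In DeltaSP against WT members only Cdkn1c passed in edgeR, 0.0397% of 2520 tested genes, with a log2 difference of -3.29 ± 0.49 (adjusted p = 0.00578). It passed under all 15 alternatives tried, at -3.62 to -2.87, with adjusted p values of at most 0.0287. KO and DeltaSP were set against the same 2 WT libraries, so a high level in those libraries enters both values. The next genes by p did not pass: 2010107E04Rik (-1.97 ± 0.41), Cops9 (-1.72 ± 0.41), Scrt1 (-2.01 ± 0.50) and Epha5 (-1.60 ± 0.40). Under alternatives 2010107E04Rik passed in 5 of 14, the replicate block among them, Scrt1 in 3, Epha5 in 2 and Cops9 in 1; leaving out a WT library was among these settings for each of the 4 genes. Without DeltaSP 2, 25 genes passed, without WT 2, 11, without WT 1, 10, and without DeltaSP 1, 3.

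In KO against DeltaSP members no gene passed in edgeR (0% of 2520), with 130 at an unadjusted p under 0.05; DESeq2 called 0 with 39 at an unadjusted p under 0.05. Plxna2, a semaphorin co-receptor gene, came nearest, with 79.7 and 72.6 CPM in WT, 208 and 288 in DeltaSP and 32.6 and 36.5 in KO (-2.78 ± 0.51, adjusted p = 0.0792). Its DeltaSP libraries lay above the other 4. Pcsk1n (-1.99 ± 0.50), Nrxn2 (-1.55 ± 0.46), Rprm (-1.34 ± 0.40) and Ccnd2 (2.67 ± 0.77) did not pass either. Some of these genes passed under alternatives: Plxna2 and Pcsk1n in 4 each and Ccnd2 in 6, for Plxna2 and Ccnd2 with the replicate block among them, and all 3 without WT 1 or without WT 2. The cell of 43745 UMIs gave 37 of 54 KO 1 UMIs of Ccnd2.

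**Figure D4:**
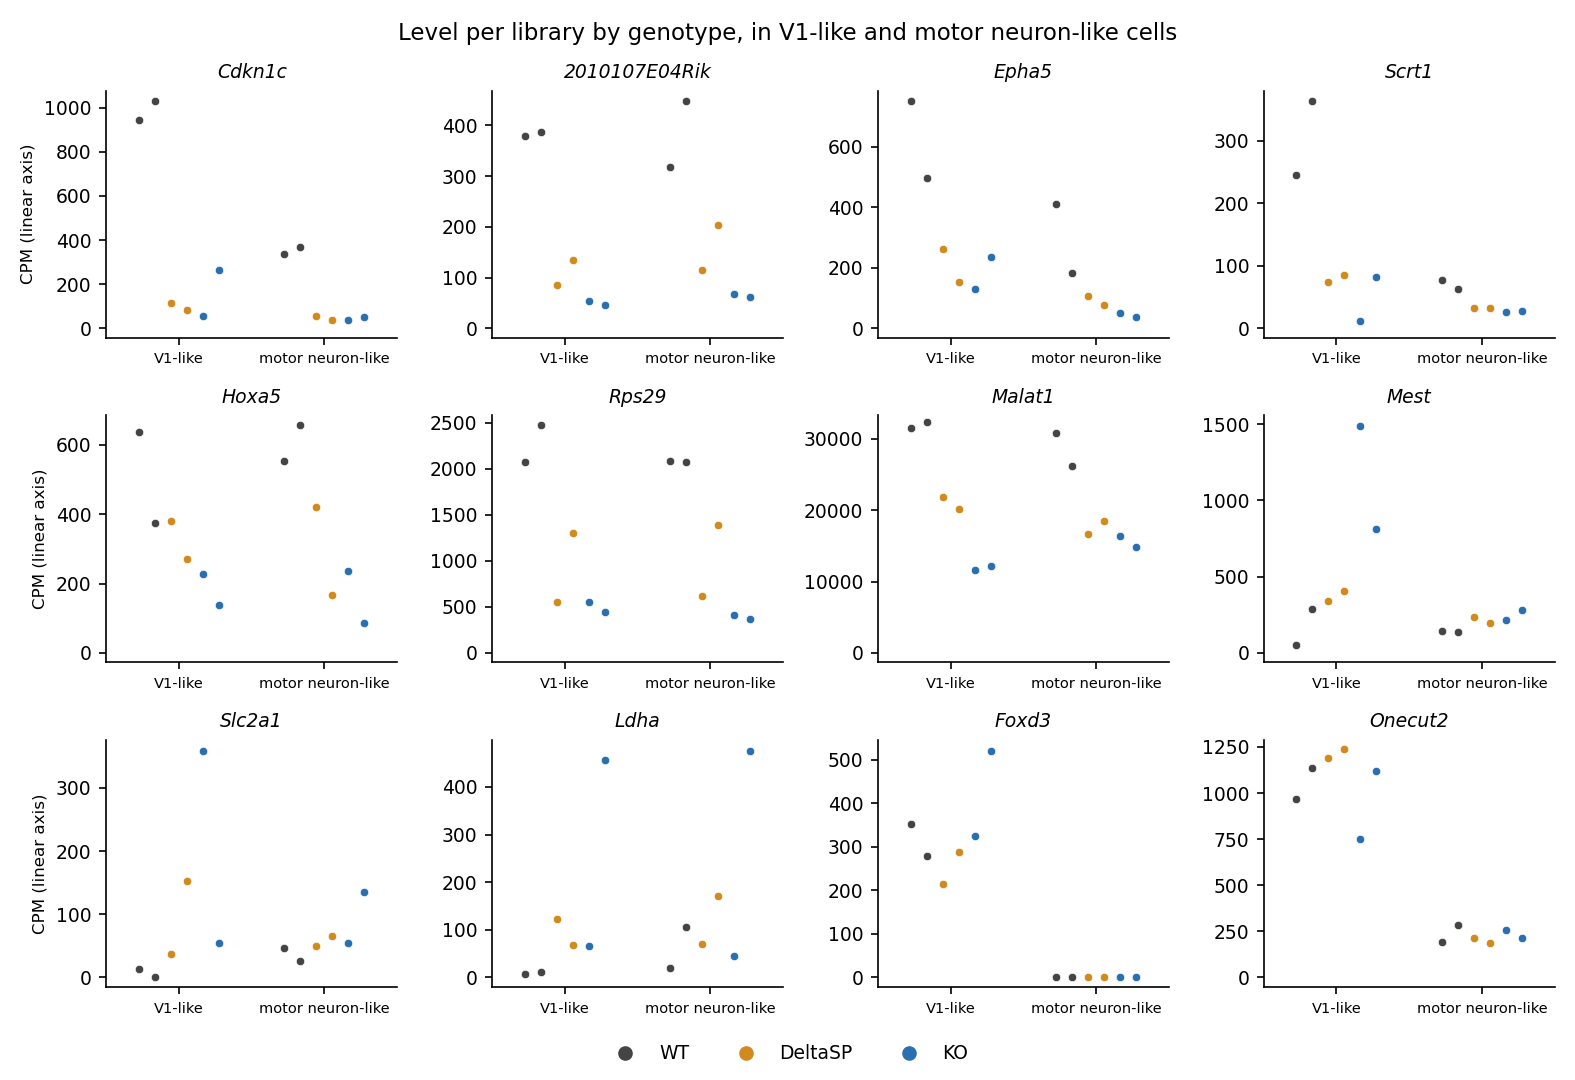
CPM per library (points, coloured by genotype, linear axes from 0) of 12 genes in V1-like and in motor neuron-like cells. Cdkn1c, Epha5 and Scrt1 are highest in both WT libraries of the V1-like cells, Mest is highest in KO, and Foxd3 and Onecut2 overlap or adjoin between genotypes.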

How the data were processed

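Each library was deposited as a matrix of raw UMI counts of genes in barcodes, for which the authors used Cell Ranger 4.0, mm10 and Ensembl release 93, per the labels and the submitters' processing notes. The labels name a different version of the 10x 3' kit in different places. No deposited column was left without a sample (0 columns).

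Barcodes under 1000 genes or over 10% mitochondrial UMIs were dropped. No doublet caller was run; cells above 2 times the median UMIs of their library were left out as an alternative. UMIs were summed per library and cell set. Plain CPM are per 1000000 UMIs of that set in that library; fold changes and tests come from edgeR 4.0.16 (R 4.3.3; TMM, filterByExpr, quasi-likelihood, Benjamini-Hochberg, 0.05), with genotype as the only term over 6 libraries, or with library as a block between cell sets. The 8 genes of the rule, 13 mitochondrial genes and, against V2b-like cells, Gata3 and Tal1 were left out. The script was tested on simulated data. Alternatives were DESeq2 1.42.0 and its size factors, no filter, the replicate block, leaving out each library, at least 2 En1 UMIs and other filters. A further alternative was cells thinned to 3000 UMIs, with shallower cells left out and the cell rules applied again to the thinned counts.

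The members and lists were chosen with earlier results of these data known. Genes were named if they belonged to the V1 or transmitter lists, or were among the 8 largest rises or falls whose libraries did not overlap (between cell sets: had 1 direction in all 6) with at least 50 CPM in the higher group, the 3 smallest p values of another list, or, where fewer than 5 passed, the 5 smallest. Hmx3, Mab21l2, Crabp1 and Epha5 (En1-negative neurons), Pdzrn4, Robo2, Hoxb9, Hoxc6 and Nrxn3 (motor neuron-like cells), Rps29 and Malat1 (KO) were chosen after their values were seen. Some genes of the lists are not reported here.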

Additional observations from a re-analysis of the deposited data

Results flagged for a closer look

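Nrxn3, a synaptic adhesion gene, differed between V1-like and motor neuron-like cells by a log2 ratio of 6.97 in KO 2, far from the other 5 libraries, which ran from 4.48 to 5.31. Its level in KO 2 was 556 CPM in the V1-like cells and 4.43 in the motor neuron-like cells. It was the only one of 32 gene and comparison pairs with 1 library set apart in this way, where chance gives about 1 in 20.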

How the results depend on the processing

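With 5 to 37 members per library, changes in rare genes were not detectable at this depth. No named gene reversed. The settings tested unlike numbers of genes, so the counts below are not on 1 scale. Between genotypes 2520 genes were tested, 12823 with no filter, 2060 with at least 2 En1 UMIs and 2352 without the deepest cell. With cells holding Isl1, Mnx1 or Neurog2 counted too 6221 were tested. With thinned cells 438 were tested, and 67 of these passed in KO against WT. KO against WT gave 68 genes, 136 with no filter, 45 with at least 2 En1 UMIs, 147 without the deepest cell, 219 with cells holding Isl1, Mnx1 or Neurog2 counted too, and 3 to 165 with 1 library left out. Without KO 1, 2 of the 20 named genes passed. DeltaSP against WT gave 1, 14 with no filter, 3 with thinned cells, 5 with those cells counted too, and 1 to 25 with 1 library left out. KO against DeltaSP gave 0, then 3, 1 (those cells) and 0 to 5. Same-numbered libraries did not deviate together (r = -0.13, 0.14 and -0.16), so the numbers were not taken as pairs; with the replicate block 106, 2 and 2 genes passed in these 3 comparisons. Against En1-negative neurons 92 of 4125 tested genes passed, 255 of 15752 with no filter and 53 of 4125 with DESeq2. There, 61 of 3714 passed with at least 2 En1 UMIs, 32 of 1217 with thinned cells and 63 to 102 with 1 library left out. Against V2b-like cells the numbers were 104 of 2157, 231 of 13988, 54 of 2157, 63 of 1646, 6 of 318 and 80 to 118. Against motor neuron-like cells 890 of 9487 passed, 565 of 9487 with DESeq2, 270 of 4102 with thinned cells and 731 to 858 with 1 library left out. DESeq2's size factors in edgeR gave 425 higher and 420 lower in place of 361 and 529.

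The share differences reversed under several settings. KO minus WT was 0.254 percentage points with cells holding Isl1, Mnx1 or Neurog2 counted too, 0.0161 with these cells also thinned, and -0.515 to -0.00227 with 1 library left out. DeltaSP minus WT was 0.0521 with those cells, and -0.468 to 0.0439 with 1 library left out, turning without WT 1 (0.0439) or DeltaSP 2 (0.00314). KO minus DeltaSP was 0.0283 thinned, 0.202 with those cells, 0.261 with both, 0.00409 among Tubb3 cells, and -0.262 to 0.169 with 1 library left out, turning without DeltaSP 1 (0.169) or KO 1 (0.0268). The cause was not tested.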

Other observations

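Neuropeptide genes were found in part of the members. Pnoc, the precursor of nociceptin, was found in 42 of 73 members, Cartpt in 30 and the somatostatin gene Sst in 18. Cartpt stood at 312 CPM in WT 1, 96.8 in WT 2, 263 in DeltaSP 1, 136 in DeltaSP 2, 43.4 in KO 1 and 82.1 in KO 2, and at 31.1 to 1466 CPM in En1-negative neurons. It was lower than in those neurons by a log2 difference of -1.65 ± 0.28 in edgeR (5 of 6 libraries), and did not pass in DESeq2 or with thinned cells (highest adjusted p = 0.659). In KO against WT members neither of the 2 tested neuropeptide genes passed in edgeR.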
